A study of Homo sapiens with 12 samples.

Results

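Short cassette exons are internal exons of at most 50 nt that can be kept in or left out of the mRNA. The exons described here were chosen by listing and structure, and not by their shifts. The event was listed in all 12 libraries, its middle exon was 50 nt or shorter, and at least 1 of the introns beside it was longer than 500 nt. The length and intron limits alone were met by 925 events listed in at least 1 library, and listing in all 12 can depend on read depth. The rule gave 390 of the 4992 events listed in every library. They lie in 344 genes as 375 distinct exons, because some exons are listed with more than 1 pair of neighbours. Of the 390, 119 exons were 30 nt or shorter and are described apart from the 271 exons of 31 to 50 nt. A further 27 exons of at most 50 nt sat between introns that were both 500 nt or shorter and were left out.

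An exon of this size leaves little room for splicing factors to bind both of its ends at once, and the shortest ones are called microexons. They are best known from neurons, where the splicing factor SRRM4 promotes the inclusion of a large programme of frame-preserving microexons, while RBFOX, PTBP1, QKI and the epithelial ESRP proteins act on short exons in other tissues. A cassette exon whose length is a multiple of 3 adds or removes a few amino acids without shifting the reading frame, so that its 2 forms can encode proteins that differ in a small surface loop or in their tail.

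RNA came from MCF10A, a line of human mammary epithelial cells that forms no tumors. Every derivative stably carried a construct: the empty vector (labelled MSCV), an siRNA-resistant wild-type TIP60 (*WT-TIP60) or an siRNA-resistant, catalytically dead TIP60 (*KD-TIP60, where KD stands for the dead enzyme and not for a knockdown). TIP60, encoded by KAT5, is the lysine acetyltransferase of the NuA4/TIP60 complex. Each line was transfected with control siRNA or TIP60 siRNA and harvested 72 h later, which gave 6 groups of 2 libraries. In the 2 lines with a resistant copy the cells also keep their own KAT5. Whether a line is a clone or a pool, and whether the 2 libraries of a group came from separate cultures, is not stated by the labels, so that p-values measure the spread between these libraries, which may be technical.

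The value reported is MISO's inclusion level, which runs from 0 (no transcript of the event has the exon) to 1 (every one has it). Its precision rests on isoform-specific reads, those compatible with just 1 of the 2 forms. Libraries held 684669 to 1052002 such reads over all events, with a median of 13 to 27 per event. Libraries numbered 1 and libraries numbered 2 differed in make-up: between 50.1% and 53.2% of event reads fitted neither form in the former, and between 64.5% and 65.7% in the latter. Each of the 6 groups has 1 library in both sets. As a check of the siRNA, reads with a 156 nt cassette exon of KAT5 itself were counted, because the form without it was abundant in the lines with a construct. That form had 4543 and 3618 reads in the libraries numbered 1 of wild-type cells and 2054 and 2019 in those of the dead-enzyme line, but 140, 115, 55 and 36 in the libraries numbered 2, against 0 to 18 in empty-vector cells. Reads with the exon in the control and depleted libraries numbered 37 and 8 against 5 and 2 in empty-vector cells, 23 and 8 against 6 and 2 in wild-type cells, and 25 and 10 against 9 and 0 in cells with the dead enzyme. Of markers for other cell types, the epithelial list had events in 5 of 12 genes with 4000 to 9910 reads per library, the neural list in 0 of 10 and the immune list in 0 of 5. Only a gene with a cassette exon event listed in every library can be counted here, so a gene without one was not necessarily silent. The mesenchymal list had events in 1 of 7 genes, FN1, whose share of event reads was 1.60 to 3.45 times higher with TIP60 siRNA in 6 of 6 pairs of same-numbered libraries (21.5 to 836 reads per 1000000 with control siRNA, 34.3 to 2538 with TIP60 siRNA), and the summed epithelial list was higher in 5 of 6 pairs (2498 to 4093 against 2708 to 4643). Within that list TP63 was 1.26 to 3.79 times higher, in 6 of 6 pairs. The rest of the list went both ways between pairs. With TIP60 siRNA their shares were 0.687 to 1.62 times the control for ESRP1 and 0.402 to 1.16 times for CDH1. For ITGB4 they were 0.782 to 1.45 times and for LAMA3 0.833 to 3.13 times the control. These differences accompany every siRNA shift given below, and their part in them was not tested.

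The sequences show how little is added by an exon of this class. Each line gives the exon in capitals between the last 15 nt of the exon before it and the first 15 nt of the exon after it, as spliced in a GENCODE 29 transcript (GRCh38), 5′ to 3′. The first group holds very short exons, the second the coding exons whose inclusion passed the test described below, the third coding exons that passed with the replicate number as a block and not in the same fit without it, and the last those of 2 subunits of the TIP60 complex itself.
RWDD4, 3 nt: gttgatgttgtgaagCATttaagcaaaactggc
PHB2, 6 nt: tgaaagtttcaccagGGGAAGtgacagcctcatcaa
AP1B1, 9 nt: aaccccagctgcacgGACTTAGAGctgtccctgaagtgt
STX16, 12 nt: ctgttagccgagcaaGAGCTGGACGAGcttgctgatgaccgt
IL18, 12 nt: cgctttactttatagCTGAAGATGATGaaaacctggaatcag
MARK3, 27 nt: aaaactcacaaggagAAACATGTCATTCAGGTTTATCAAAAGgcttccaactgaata
DIAPH1, 27 nt: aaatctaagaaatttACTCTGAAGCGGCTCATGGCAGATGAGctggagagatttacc
CLSTN1, 30 nt: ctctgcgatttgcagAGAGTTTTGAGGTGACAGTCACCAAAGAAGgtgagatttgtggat
PPP3CB, 30 nt: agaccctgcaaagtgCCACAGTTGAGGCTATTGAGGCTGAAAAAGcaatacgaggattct
CEP78, 48 nt: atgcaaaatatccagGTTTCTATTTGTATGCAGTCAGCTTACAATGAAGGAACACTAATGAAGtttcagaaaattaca
SZRD1, 50 nt: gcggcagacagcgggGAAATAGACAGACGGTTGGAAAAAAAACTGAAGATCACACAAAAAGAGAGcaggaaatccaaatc
HNRNPA2B1, 36 nt: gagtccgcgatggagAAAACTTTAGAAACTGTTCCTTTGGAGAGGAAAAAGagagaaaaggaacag
TPD52L1, 39 nt: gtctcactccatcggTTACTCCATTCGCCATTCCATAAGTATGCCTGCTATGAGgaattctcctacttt
MARK3, 45 nt: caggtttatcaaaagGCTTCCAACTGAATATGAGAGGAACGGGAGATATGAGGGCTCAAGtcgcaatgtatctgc
MEAF6, 30 nt: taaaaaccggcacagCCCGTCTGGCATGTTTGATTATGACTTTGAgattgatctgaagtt
BRD8, 45 nt: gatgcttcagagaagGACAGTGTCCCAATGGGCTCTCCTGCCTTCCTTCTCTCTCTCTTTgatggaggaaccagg
In these 16 lines only the SZRD1 exon has a length that is not a multiple of 3. The 2 MARK3 exons are neighbours, so that the capitals of the 27 nt line end in the lower-case start of the 45 nt line.

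Frame preservation was most frequent among the shortest exons. A length divisible by 3 was found in 87 of 119 exons of up to 30 nt (73.1%, 95% Wilson interval 64.5% to 80.3%), in 152 of 271 exons of 31 to 50 nt (56.1%, 50.1% to 61.9%) and in 2286 of 4154 exons of 51 to 250 nt (55.0%, 53.5% to 56.5%). The exons of up to 30 nt were also the most often wholly coding, 96 of 119 (80.7%), against 170 of 271 (62.7%) in the 31 to 50 nt class and 2855 of 4154 (68.7%) among exons of 51 to 250 nt. Among the wholly coding exons of up to 30 nt, 77 (80.2%) kept the frame. Over all 390 exons, 57 lay in a 5′ UTR, 50 were partly coding, 2 lay in a 3′ UTR, 2 in noncoding transcripts only and 13 had no annotated exon at their place. The median GC content was 46.9% over the 377 exons with a sequence, against 50.3% over exons of 51 to 250 nt, and the introns before and after had median lengths of 2136 and 2177 nt, against 2106 and 2048 nt. Of the 390 events, 12 lie on alternate contigs, and 6 match 2 genes.

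Only 145 of the 390 exons could be tested, because a test required that no library had fewer than 10 isoform-specific reads for the event: 41 of those up to 30 nt (34.5%) and 104 of those of 31 to 50 nt (38.4%), against 2229 of 4154 exons of 51 to 250 nt (53.7%). The 145 lie in 129 genes, 4 of the events are 2 exons listed with different neighbours, and 9 lie on alternate contigs, whose copies of a locus can hold the same reads. The exons of up to 30 nt that were tested sat mostly near one end of the scale, while most of those with too few reads to test had a level between. Averaged over the 12 libraries, 21 of the 41 exons of up to 30 nt had an inclusion level of 0.1 or less, 11 had 0.9 or more and 9 lay between, with a median of 0.0967. In the 31 to 50 nt class the same counts were 35, 34 and 35 of 104, with a median of 0.399, and among the 2229 tested exons of 51 to 250 nt they were 332, 887 and 1010, with a median of 0.863. These are descriptions of exons that passed a read filter. Of the 78 exons of up to 30 nt that did not pass it, 56 (71.8%) lay between 0.1 and 0.9, so that over all 119 the count was 65 (54.6%), and over all 271 of 31 to 50 nt it was 176 (64.9%). Levels differed by over 0.1 between the 2 replicate sets for 0 of the 41 and 12 of the 104, against 507 of 2229 (22.7%) of the longer exons. This too depends on the read filter. Of the 78 untested exons of up to 30 nt, 31 (39.7%) differed by over 0.1. Over all listed exons the counts were 31 of 119 (26.1%), 91 of 271 (33.6%) and 1538 of 4154 (37.0%).

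**Figure D1:**
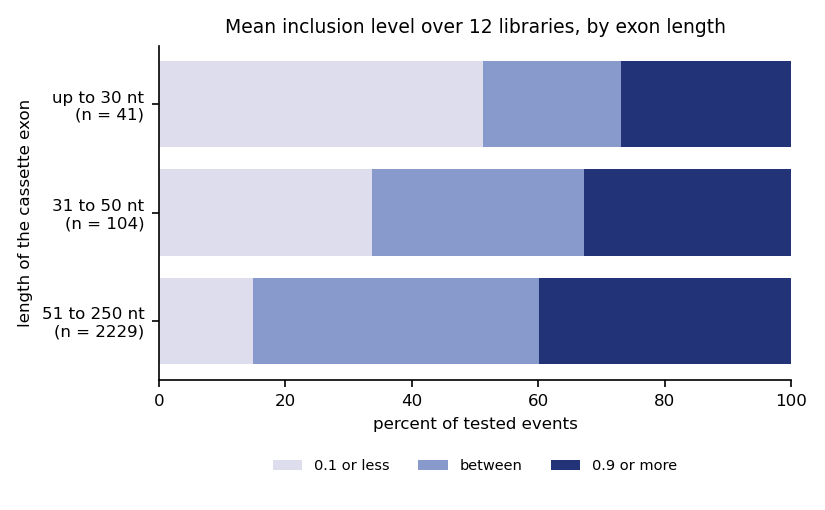
Horizontal bars, from 0 to 100 percent of the tested events, show how many exons of each length class had a mean inclusion level over 12 libraries of 0.1 or less, of 0.9 or more, or between. The lightest section takes 51.2% of the exons of up to 30 nt, 33.7% of those of 31 to 50 nt and 14.9% of those of 51 to 250 nt.

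The comparison of TIP60 siRNA with control siRNA was averaged over the 3 lines and so describes their mean, not a shift in each line. An exon passed in 8 genes: those of MYL6, MARK3 (27 nt), DIAPH1, HNRNPC and CLSTN1 fell, and those of PPP3CB, CEP78 and SZRD1 rose. In limma, with p-values adjusted over all 2695 tested events, 8 of the 145 short exons passed 0.05 (5.52%), beside 2.19% of all tested events. The 5 that fell compare with 1.93% of all events, and the 3 that rose with 0.26%. Split by length, 5 of 41 exons of up to 30 nt passed (4 lower, 1 higher) and 3 of 104 of the 31 to 50 nt class (1 lower, 2 higher). The median shift was 0 in both classes, beside -0.00667 over all tested events, and 23 of the 145 exons (15.9%) differed by over 0.1 in either direction, beside 9.13% of all.

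The exon of MARK3 with 27 nt (ENSG00000075413, chr14:103498502-103498528, plus strand, coding) had, control siRNA first, inclusion levels of 0.36 and 0.41 against 0.02 and 0.02 in empty-vector cells. The levels were 0.26 and 0.31 against 0.11 and 0.02 in wild-type cells, and in cells with the dead enzyme 0.47 and 0.48 against 0.04 and 0.07. The highest TIP60 siRNA library thus stayed below the lowest control library in the series, and 5 of the 6 depleted libraries were at 0.07 or less. MARK3 is a kinase that phosphorylates microtubule-associated proteins and takes part in cell polarity. The averaged shift was -0.335 (SE 0.0197, adjusted p 0.00152), with -0.307 in the first replicate set and -0.363 in the second. The reads behind it were 234 with and 308 without the exon over the control libraries, against 22 and 499 over the TIP60 siRNA libraries.

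DIAPH1 (ENSG00000131504, chr5:141588224-141588250, minus strand, coding, 27 nt) encodes a formin that nucleates actin filaments. Nearly all of its transcripts kept the exon with control siRNA, at 0.97 and 0.99 in empty-vector cells, 0.97 and 0.99 in wild-type cells, then 0.97 and 0.97 in cells with the dead enzyme. With TIP60 siRNA the levels were 0.74 and 0.83, 0.94 and 0.92, and 0.82 and 0.84. The 2 siRNA groups did not overlap, and the wild-type cells stayed nearest to the control level. The averaged shift was -0.128 (SE 0.0159, adjusted p 0.0227), from 13 reads without the exon over the 6 control libraries and 153 over the others.

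The HNRNPC exon (ENSG00000092199, chr14:21263311-21263336, minus strand, 26 nt) lies in the 5′ UTR of the gene, which encodes an abundant nuclear RNA-binding protein of the heterogeneous ribonucleoprotein particle. It was deeply covered, with 795 to 1967 isoform-specific reads per library. Levels with control siRNA were 0.78 and 0.80 in empty-vector cells, 0.79 and 0.80 in the wild-type line, and 0.81 and 0.80 in cells with the dead enzyme, and with TIP60 siRNA 0.68 and 0.72, 0.72 and 0.75, and 0.65 and 0.67. The 6 depleted libraries lay below the 6 control libraries, and the control libraries were within 0.03 of each other. Averaged over the lines the shift was -0.0983 (SE 0.00927, adjusted p 0.00763).

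CLSTN1 (ENSG00000171603, chr1:9756481-9756510, minus strand, coding, 30 nt) encodes calsyntenin-1, a membrane protein that links cargo vesicles to kinesin. With control siRNA its exon was at 0.14 and 0.13 in empty-vector cells and 0.20 and 0.12 in cells with the dead enzyme but only 0.04 and 0.04 in wild-type cells. With TIP60 siRNA the levels were 0.02 and 0.02, 0.03 and 0.04, and, in wild-type cells, 0.04 and 0.02. The 2 control libraries of wild-type cells were thus no higher than the highest depleted libraries, and the other 4 control libraries lay above every depleted one. This gave an averaged shift of -0.0833 (SE 0.0154, adjusted p 0.046).

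PPP3CB was the only exon of up to 30 nt that rose past the threshold (ENSG00000107758, chr10:73439872-73439901, minus strand, coding, 30 nt). The gene encodes a catalytic subunit of calcineurin, the calcium-dependent phosphatase. Levels were 0.62 and 0.50 against 0.94 and 0.88 in empty-vector cells, 0.65 and 0.50 against 0.85 and 0.79 in wild-type cells, and 0.59 and 0.50 against 0.88 and 0.88 in cells with the dead enzyme, control siRNA first. Every depleted library was above every control library. The mean shift over the lines was 0.31 (SE 0.0362, adjusted p 0.0221), 0.27 in the first set and 0.35 in the second. The paralog PPP3CC has a 30 nt cassette exon too, which had as few as 8 isoform-specific reads in a library and was not tested: its mean level was 0.503 with control and 0.512 with TIP60 siRNA.

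Among the exons of 31 to 50 nt, the 45 nt exon of MYL6 (ENSG00000092841, chr12:56160626-56160670, plus strand, partly coding) moved furthest. MYL6 encodes the essential light chain of smooth-muscle and non-muscle myosin, and this exon sets which of the 2 known tails the protein ends in. Levels with control siRNA were 0.63 and 0.86 in empty-vector cells, 0.76 and 0.80 in the wild-type line, and 0.79 and 0.80 in cells with the dead enzyme, and with TIP60 siRNA 0.22 and 0.26, 0.33 and 0.30, and 0.20 and 0.30. The groups lay 0.3 apart at their nearest. Its averaged shift was -0.505 (SE 0.04, adjusted p 0.00394), with -0.477 in the first set and -0.533 in the second, on 286 to 2367 isoform-specific reads per library.

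CEP78 (ENSG00000148019, chr9:78265859-78265906, plus strand, coding, 48 nt), a gene for a centrosomal protein, went the other way. Its levels were 0.29 and 0.34 against 0.74 and 0.86 in empty-vector cells, 0.61 and 0.37 against 0.72 and 0.62 in wild-type cells, and 0.45 and 0.55 against 0.70 and 0.81 in cells with the dead enzyme. The nearest control and depleted libraries, 0.61 and 0.62, both belong to the wild-type line. The averaged shift was 0.307 (SE 0.0511, adjusted p 0.0361), on as few as 17 isoform-specific reads in a library.

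The 50 nt exon of SZRD1 (ENSG00000055070, chr1:16391375-16391424, plus strand, coding) has 2 listings, with downstream exons whose starts differ by 3 nt. In the event that passed, levels were 0.15 and 0.22 against 0.30 and 0.37, 0.12 and 0.21 against 0.25 and 0.29, and 0.21 and 0.19 against 0.30 and 0.34 in the empty-vector, wild-type and dead-enzyme lines. The averaged shift was 0.125 (SE 0.0234, adjusted p 0.0491). In the other event the shift was 0.107 (SE 0.0285, adjusted p 0.15). The 2 events share their exon, so that they are not separate evidence.

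**Figure D2:**
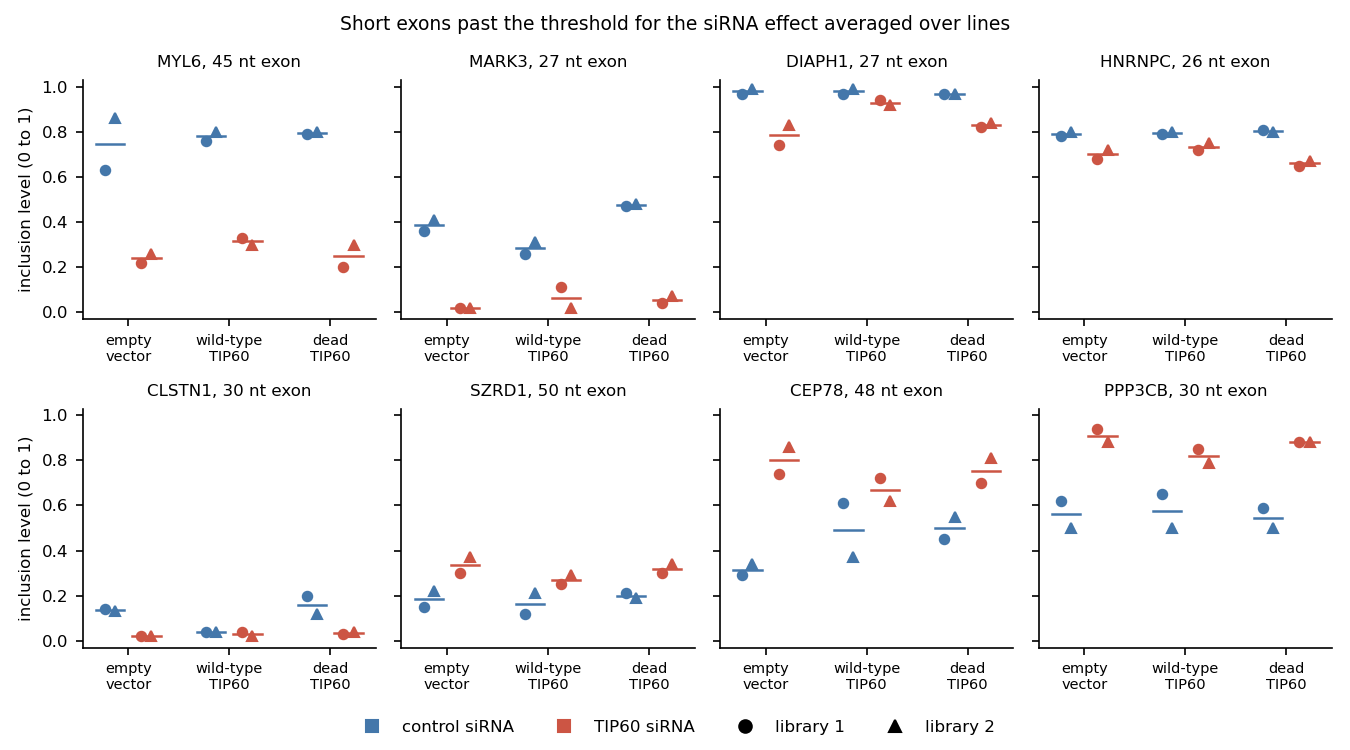
Each panel is a short exon that passed the averaged siRNA comparison, with the inclusion level on the vertical axis, the 3 lines on the horizontal axis, control siRNA in blue and TIP60 siRNA in red; circles are libraries numbered 1, triangles libraries numbered 2 and lines their mean. In MARK3 (27 nt), MYL6, DIAPH1 and HNRNPC the red points lie below the blue ones in every line, in PPP3CB, CEP78 and SZRD1 above, and in CLSTN1 the wild-type points sit together between 0.02 and 0.04.

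These calls differed in how much they rested on single libraries. MARK3 (27 nt), MYL6 and HNRNPC passed without any 1 of the 12 libraries, with highest adjusted p of 0.0178, 0.028 and 0.0391. PPP3CB passed in 8 of 12 such fits and was lost, at up to 0.0682, without either wild-type TIP60 siRNA library, the second control library of the dead-enzyme line or its first TIP60 siRNA library. DIAPH1 passed in 3 of 12 (without either TIP60 siRNA library of empty-vector cells or the second of the dead-enzyme line, up to 0.0781 in the others), CLSTN1 in 1 (without the second control library of the dead-enzyme line, up to 0.138 in the others), CEP78 in 1 (without the first control library of wild-type cells, up to 0.114 in the others) and SZRD1 in 0 (0.065 to 0.147). On a log2 odds scale HNRNPC (adjusted p 0.0782), SZRD1 (0.16) and CEP78 (0.0503) did not pass. With no read minimum CLSTN1 (0.0854), SZRD1 (0.0648) and CEP78 (0.0511) did not, and on the plain read ratio CLSTN1 (0.0571) did not.

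The replicate numbers pair the libraries, and a fit with the number as a block called 12 of the 145 short exons, beside 4.27% of all tested events. The 8 exons above were among them, and 4 were added: BAIAP2, the 45 nt exon of MARK3 and TPD52L1 were lower, and HNRNPA2B1 was higher. The 36 nt exon of HNRNPA2B1 (chr7:26197831-26197866, minus strand, coding) separates the A2 form of this RNA-binding protein, which lacks it, from the B1 form. Its levels were 0.12 and 0.18 against 0.27 and 0.46 in empty-vector cells, 0.05 and 0.15 against 0.16 and 0.41 in wild-type cells, and 0.09 and 0.15 against 0.27 and 0.44 in cells with the dead enzyme. Within each pair the depleted library was higher by between 0.11 and 0.29, while the 2 libraries of a depleted group differed by up to 0.25, and without the block the adjusted p was 0.167 (shift 0.212, SE 0.0586) against 0.0175 with it.

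TPD52L1 (chr6:125253717-125253755, plus strand, coding, 39 nt), a member of the tumor protein D52 family, had levels of 0.49 and 0.49 against 0.26 and 0.14, 0.50 and 0.31 against 0.31 and 0.22, and 0.48 and 0.42 against 0.26 and 0.13 (shift -0.228, adjusted p 0.0533 without and 0.0101 with the block). Without the block it passed when at least 20 reads were required (0.0466). BAIAP2 (chr17:81110914-81110959, plus strand, partly coding, 46 nt) encodes IRSp53, an adaptor that bends membranes in filopodia. Its levels were 0.65 and 0.72 against 0.45 and 0.60, 0.68 and 0.92 against 0.43 and 0.73, and 0.60 and 0.86 against 0.38 and 0.40, so that the groups overlapped (shift -0.24, adjusted p 0.219 and 0.0349). The 45 nt exon of MARK3 (chr14:103500156-103500200, plus strand, coding) had levels of 0.15 and 0.17 against 0.11 and 0.04, 0.18 and 0.11 against 0.09 and 0.02, and 0.17 and 0.14 against 0.09 and 0.08 (shift -0.0817, adjusted p 0.138 and 0.0421). The lowest control library and the highest depleted one were both at 0.11.

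**Figure D3:**
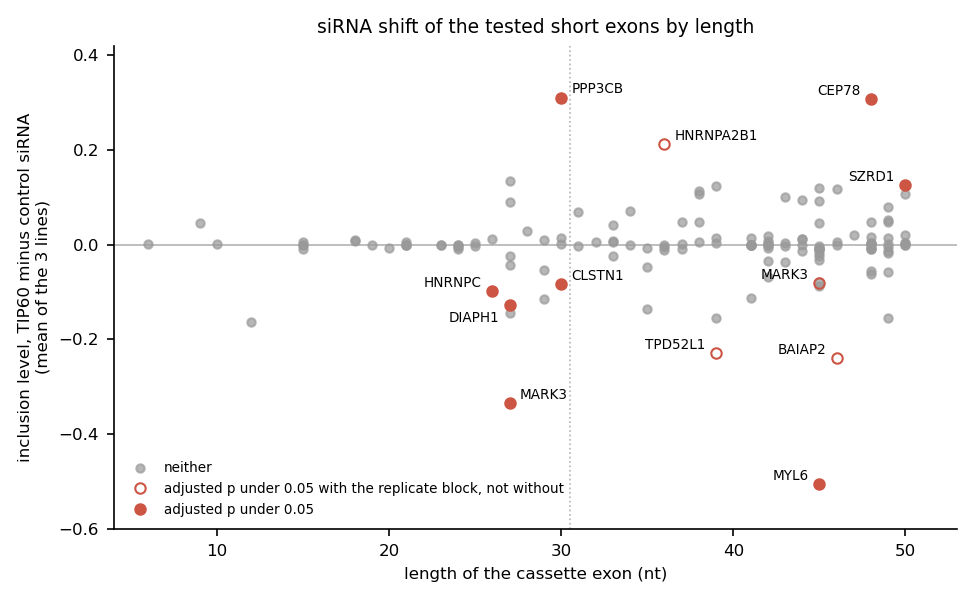
Each point is 1 of the 145 tested short exons, with its length in nt on the horizontal axis and the inclusion level with TIP60 siRNA minus that with control siRNA, averaged over the 3 lines, on the vertical axis; the dotted line divides exons of up to 30 nt from longer ones. Filled red points are the 8 exons with an adjusted p under 0.05, open red points the 4 that passed with the replicate block and not without it, and most grey points lie close to 0.

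The direction of shifts of any size was counted in the short exons and in the whole table, with no test of the difference. Of the 145, 11 were lower in 6 of 6 pairs (9.46% of all tested events were) and 16 were higher in 6 of 6 (2.34%). On primary chromosomes and with 1 listing per exon, a count chosen after seeing the data, 11 and 14 of 134 remained (9.04% and 2.44% of all such events). All 6 depleted libraries lay below all 6 control libraries for 5 short exons, beside 2.6% of all events, and above them for 5, beside 0.445%. Fitted shifts were below 0 in all 3 lines for 24 of the 145 and above 0 in all 3 for 33, while over all 2695 events the counts were 776 and 314. In the 31 to 50 nt class 26 were higher and 14 lower of 104, and in the class of up to 30 nt 7 were higher and 10 lower of 41. An unadjusted p under 0.05 was reached by 31 of the 145 (21.4%), beside 12.3% of all tested events.

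Of the exons of up to 30 nt that did not pass, 4 had the same sign in 6 of 6 pairs. PTPRF (27 nt, coding), a receptor-type tyrosine phosphatase at cell contacts, had control levels of 0.04 to 0.08 with a median of 0.045 and TIP60 siRNA levels of 0.07 to 0.24 with a median of 0.125 (shift 0.09, adjusted p 0.262). HDAC2 (28 nt, 5′ UTR), a histone deacetylase gene, ranged from 0.01 to 0.02 and from 0.03 to 0.06, so that the groups did not overlap although the levels were low (shift 0.0283, adjusted p 0.26). SGCE (27 nt, coding), which encodes epsilon-sarcoglycan, ranged from 0.95 to 0.98 and from 0.89 to 0.95 (shift -0.0433, adjusted p 0.294). KIFC3 (29 nt, partly coding), a minus-end kinesin, ranged from 0.87 to 0.98 and from 0.85 to 0.94 (shift -0.0533, adjusted p 0.144).

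Among exons of 31 to 50 nt that did not pass with or without the block, the largest shifts with the same sign in 6 of 6 pairs were in ARAP3, MGRN1, GPBP1L1, DSC2 and NAP1L4. The 39 nt exon of ARAP3, a GTPase-activating protein for Arf, was at 0.97 to 0.99 in the 6 control libraries and at 0.71 to 0.92 in the others, without overlap (shift -0.155, adjusted p 0.0767). The 45 nt exon of MGRN1, an E3 ubiquitin ligase, was at 0.09 to 0.27 and 0.05 to 0.16 (shift -0.0883, adjusted p 0.242). The 45 nt 5′ UTR exon of GPBP1L1 was at 0.56 to 0.82 and 0.61 to 0.94 (shift 0.12, adjusted p 0.525). The 46 nt exon of DSC2, which separates the a and b tails of the desmosomal cadherin desmocollin-2, was at 0.23 to 0.47 and 0.35 to 0.60 (shift 0.117, adjusted p 0.552). The 38 nt exon of NAP1L4, a histone chaperone, was at 0.16 to 0.31 and 0.24 to 0.51 (shift 0.107, adjusted p 0.484). An event on an alternate contig of chromosome 11 repeats its values to within 0.02, so that the pair may hold the same reads.

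Line by line, few short exons passed. In empty-vector cells limma called 1 of 145, MARK3 (27 nt), with a shift of -0.365 (SE 0.0341, adjusted p 0.0353), beside 0.0371% of all tested events. In cells with the dead enzyme it again called MARK3 (27 nt) alone, with -0.42 (SE 0.0341, adjusted p 0.0137), beside 0.0371%. In wild-type cells it called 0 of the 145 and 0% of all events, while 11 of the 145 had an unadjusted p under 0.05, beside 4.3% of all events, and the quasi-binomial fit on reads called 0. The unadjusted counts were 13 in empty-vector cells (6.6% of all events) and 16 in cells with the dead enzyme (6.75%). With the replicate block, PPP3CB (adjusted p 0.0367) was added in empty-vector cells, for 2 short exons beside 0.148% of all events. PPP3CB (0.0299), MYL6 (0.0299) and HNRNPC (0.0105) were added in cells with the dead enzyme, for 4 beside 0.371%. In wild-type cells the block called 0 short exons beside 0.148%. Without 1 library, the MARK3 call in empty-vector cells was lost in 8 of 12 fits (adjusted p up to 0.162): without the second control library or either TIP60 siRNA library of that line, without the second control library of wild-type cells, or without any library of the dead-enzyme line. In the dead-enzyme line it was lost without any of that line's own 4 libraries (up to 0.247). On the log2 odds scale neither line's MARK3 call was kept (adjusted p 0.239 and 0.195), nor when only the 4 libraries of the line were fitted (0.685 and 0.4), and in empty-vector cells it was lost with no read minimum (0.0584) and in the quasi-binomial fit (0.0935).

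**Figure D4:**
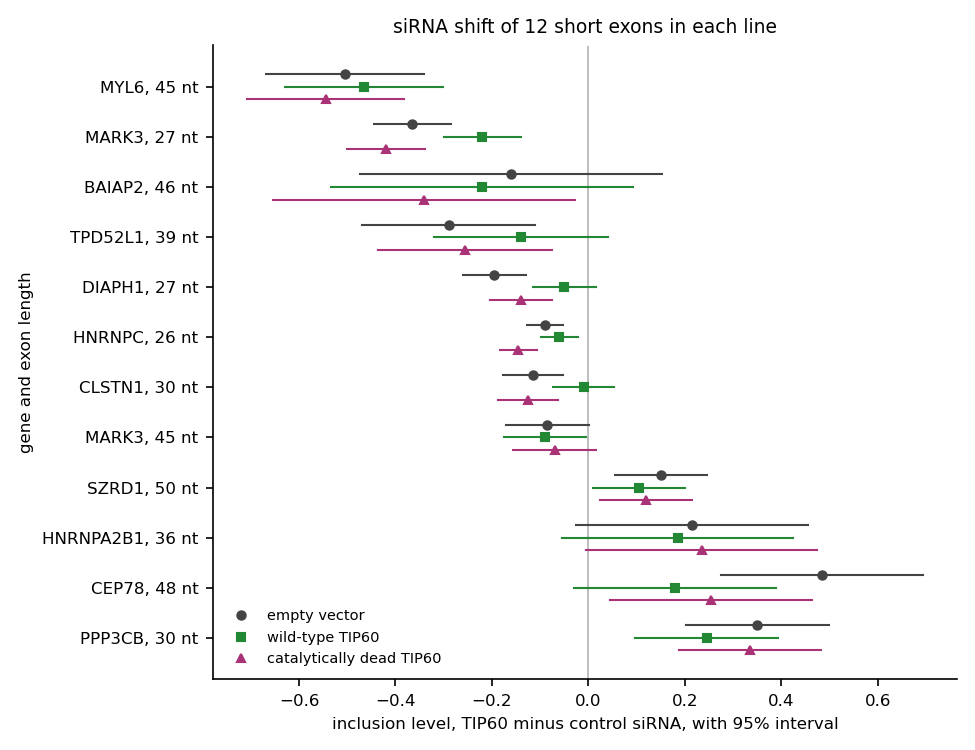
For the 12 short exons that passed the averaged comparison with or without the replicate block, the inclusion level with TIP60 siRNA minus that with control siRNA is drawn for each line, with limma's 95% interval as a bar; the vertical line marks no shift. The 3 symbols of an exon lie on the same side of 0 throughout. The wild-type square is nearest to 0 in 10 of the 12, the others being BAIAP2 and MARK3 (45 nt). Some gaps are small, such as -0.465 against -0.505 in empty-vector cells for MYL6, and no difference between lines passed. The same count over all events is not given. Shifts over 0.1 were seen in 11.1% of all tested events in wild-type cells, 14.4% in empty-vector cells and 13% in the dead-enzyme line.

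A stricter description that uses no model is the number of exons whose 2 depleted libraries both lay at least 0.1 below, or above, both control libraries of the line. In empty-vector cells 7 of the 145 were lower by this measure (2.6% of all events) and 2 higher (0.891%). In wild-type cells 3 were lower (2.19%) and 2 higher (0.334%), and in cells with the dead enzyme 8 were lower (3.41%) and 4 higher (0.705%). All 3 lines met it for 2 lower exons, MYL6 and MARK3 (27 nt), beside 0.519% of all events, and for 1 higher exon, PPP3CB, beside 0.0742%.

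Whether the siRNA shift differs between lines was tested on the difference of the shifts. Limma called 0 of the 145 in each of the 3 differences, and 0% of all tested events, with and without the block, so that none of the following differences passed. The wild-type minus empty-vector difference had an unadjusted p under 0.05 in 4 short exons, beside 1.71% of all events, and its 3 smallest p-values were in DIAPH1 (0.145, 95% interval 0.0533 to 0.237), MARK3 of 27 nt (0.145, 0.0312 to 0.259) and CLSTN1 (0.105, 0.016 to 0.194), each with an adjusted p of 1. The fourth was CEP78 (-0.305, -0.601 to -0.00896). In the first 3 the fall was smaller in wild-type cells: DIAPH1 shifted by -0.05 there and -0.195 in empty-vector cells, MARK3 by -0.22 and -0.365, and CLSTN1 by -0.01 and -0.115. With control siRNA, MARK3 and CLSTN1 already differed between wild-type and empty-vector cells, by -0.1 and -0.095, while DIAPH1 had the same levels in both. With TIP60 siRNA, the dead-enzyme line minus the wild-type line gave -0.01 for MARK3, 0.005 for CLSTN1 and -0.1 for DIAPH1. The difference between the dead-enzyme and wild-type lines had an unadjusted p under 0.05 in 5, beside 1.19%, led by MARK3 of 27 nt (-0.2, -0.314 to -0.0862), HNRNPC (-0.085, -0.139 to -0.0314) and CLSTN1 (-0.115, -0.204 to -0.026), with an adjusted p of 1. MARCH7 (-0.165, -0.319 to -0.0105) and STX16 (-0.245, -0.484 to -0.00557) followed. That between the dead-enzyme and empty-vector lines did so in 1, beside 1.34%: HNRNPC, with -0.055 (-0.109 to -0.00136). Next came CEP78 (-0.23, -0.526 to 0.066) and MGRN1 (0.13, -0.038 to 0.298). These 3 differences share lines and are not independent of each other.

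The constructs themselves were compared under one siRNA. Wild-type TIP60 against empty vector under control siRNA called 0 short exons and 0% of all events, with 2 at an unadjusted p under 0.05 beside 1.6%. The exons with the smallest p were CLSTN1 (-0.095, 95% interval -0.158 to -0.032), MARK3 of 27 nt (-0.1, -0.18 to -0.0196) and the 45 nt exon of SOS1, an exchange factor for Ras (-0.2, -0.404 to 0.00416), and the SOS1 value came from 0.85 and 0.93 in empty-vector cells against 0.84 and 0.54. The dead enzyme against empty vector under control siRNA called 0 and 0%, with 1 at an unadjusted p under 0.05 beside 0.853%: MARK3 of 27 nt (0.09, 0.00956 to 0.17), followed by KIFC3 (-0.055, -0.113 to 0.00262) and CEP78 (0.185, -0.0243 to 0.394). Under TIP60 siRNA, the dead enzyme against the wild-type enzyme called 0 and 0%, with 4 at an unadjusted p under 0.05 beside 2.45%. HNRNPC (-0.075, -0.113 to -0.0371, adjusted p 0.97), DIAPH1 (-0.1, -0.165 to -0.0351) and the 49 nt exon of MARCH7, a ubiquitin ligase gene (-0.165, -0.274 to -0.0558), led it, the latter 2 with an adjusted p of 1, followed by KIFC3 (-0.075, -0.133 to -0.0174). The replicate block also called 0 short exons and 0% of all events in each of these comparisons. MARK3 of 27 nt under control siRNA thus had its lowest levels in wild-type cells, 0.26 and 0.31, and its highest in the dead-enzyme line, 0.47 and 0.48, with empty-vector cells at 0.36 and 0.41.

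The lists of genes used next were drawn up with earlier results of these data known. A gene could thus enter a list because its exon had shifted, so the counts are descriptions and cannot test a theme. Over all tested events, 1.93% were called lower and 0.26% higher. Of 13 tested events in 10 genes of the cytoskeleton and adhesion, 3 fell (MARK3 of 27 nt, MYL6 and DIAPH1) and 0 rose. The median shift was -0.025, beside -0.00667 over all events. Other members of that list did not pass: the 24 nt exon of filamin A, an actin crosslinker, was at 0.83 and 0.825 on average with control and TIP60 siRNA, and the 15 nt exon of SPTAN1, an alpha-spectrin, at 0.178 and 0.17. Of 7 tested events in 5 genes for kinases, phosphatases and signalling adaptors, 1 fell (MARK3 of 27 nt, counted in both lists) and 1 rose (PPP3CB). With the replicate block 4 fell in the first list, and 2 fell and 1 rose in the second, the added one being the 45 nt exon of MARK3 in both. Of 4 in splicing and RNA-binding genes 1 fell (HNRNPC) and 0 rose (with the block HNRNPA2B1 rose too), and of 3 in vesicle traffic genes 0 passed: the clathrin light chain exon of CLTA (36 nt) was at 0.00833 and 0.00667, the adaptor exon of AP2B1 (42 nt) at 0.287 and 0.28, and the 12 nt exon of the syntaxin STX16 at 0.467 and 0.303.

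In the NuA4/TIP60 complex itself, 2 of 18 listed genes carry a short cassette exon. The 45 nt exon of BRD8, a bromodomain subunit, had levels of 0.49 and 0.43 against 0.39 and 0.33 in empty-vector cells, 0.51 and 0.41 against 0.43 and 0.44 in wild-type cells, and 0.54 and 0.42 against 0.47 and 0.55 in cells with the dead enzyme (chr5:138159555-138159599, minus strand, coding). The control and depleted libraries overlapped, and the averaged shift was -0.0317 (95% interval -0.105 to 0.0419, adjusted p 0.872). MEAF6 (chr1:37496707-37496736, minus strand, coding, 30 nt) had as few as 4 isoform-specific reads in a library and was not tested. Its levels were between 0.02 and 0.11 in the control libraries and between 0.03 and 0.13 in the depleted ones.

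Genes known for microexons of neurons or muscle were matched by gene, so that exons over 30 nt are among theirs and need not be the known microexon. These genes held 24 of the 390 exons, of which 7 could be tested. Only DIAPH1 passed. PTPRF and SGCE are given above, DCTN1 (15 nt, a dynactin subunit) lay between 0.01 and 0.07 and EIF4G1 (21 nt, a translation initiation scaffold) between 0.01 and 0.03 in every library, and TPD52L2 (49 nt) between 0.97 and 0.99. Among the 17 not tested, ABI1 (15 nt) and CLASP2 (24 nt), both on the cytoskeleton and adhesion list, ranged from 0.05 to 0.19 and from 0.03 to 0.32. MEF2D (21 nt) and MEF2A (24 nt), transcription factors, ranged from 0.05 to 0.25 and from 0.02 to 0.16. ARHGAP21 (30 nt), GOPC (24 nt) and BIN1 (45 nt) ranged from 0.03 to 0.50, from 0.10 to 0.45 and from 0.01 to 0.28. DNM1L (33 nt), the mitochondrial fission dynamin, was kept more often, at 0.42 to 0.92, and PPFIBP1 (33 nt), a liprin, was at 0.25 to 0.71. MYO18A (45 nt), an unconventional myosin, had levels of 0.64 to 0.80 in the control libraries and 0.06 to 0.44 in the depleted ones, lower in 6 of 6 pairs, on as few as 4 isoform-specific reads. SPAG9 (39 nt), a scaffold for JNK, was at 0.19 to 0.36 and 0.03 to 0.31, lower in 5 of 6 pairs.

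All 19 exons of 12 nt or less are accounted for here, since they are the extreme of the class. Of these 4 were tested. The 6 nt exon of PHB2, a prohibitin, was at 0.99 to 1.00 and the 10 nt 5′ UTR exon of ARF3 at 0.00 to 0.01 in every library, so that neither had room to shift in one direction. The 9 nt exon of AP1B1, a clathrin adaptor subunit, was at 0.05 to 0.10 with control and 0.07 to 0.25 with TIP60 siRNA (shift 0.045, adjusted p 0.617), where the 0.25 was the second library of the dead-enzyme line. STX16 had 0.48 and 0.52 against 0.40 and 0.23 in empty-vector cells, 0.29 and 0.46 against 0.32 and 0.37 in wild-type cells, and 0.56 and 0.49 against 0.27 and 0.23 in cells with the dead enzyme (shift -0.163, SE 0.0414, adjusted p 0.134). It was thus lower in 5 of 6 pairs.

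The remaining 15 had under 10 isoform-specific reads in at least 1 library, and their levels are given as deposited. IL18 (12 nt), the gene of an epithelial cytokine, had 0.95 and 0.91 against 0.32 and 0.67 in empty-vector cells, 0.98 and 0.86 against 0.89 and 0.79 in wild-type cells, and 0.95 and 0.81 against 0.79 and 0.73 in cells with the dead enzyme. It was lower in 6 of 6 pairs, on as few as 2 isoform-specific reads in a library. MACF1 (9 nt), a spectraplakin, was mostly included, at 0.79 to 0.98. RWDD4 (3 nt), RELB (9 nt) and VPS29 (12 nt) lay between 0.52 and 0.85, 0.40 and 0.86, and 0.28 and 0.87. KDM1A (12 nt), whose exon is a known neuronal microexon of the histone demethylase LSD1, was at 0.02 to 0.13, and SPG7, whose middle exon is 1 nt by its listed coordinates and not annotated, at 0.01 to 0.12. NSFL1C (6 nt) was at 0.01 to 0.03 in the first replicate set and at 0.17 to 0.37 in the second. AP1S2 (9 nt), a clathrin adaptor subunit like AP1B1, was at 0.05 to 0.13 with control and 0.14 to 0.26 with TIP60 siRNA, without overlap and higher in 6 of 6 pairs, on as few as 3 isoform-specific reads. The rest ranged from 0.09 to 0.44 in MAP4K4, 0.10 to 0.52 in NAV2, 0.07 to 0.44 in PTK2, 0.09 to 0.55 in SNX21, 0.11 to 0.58 in BLOC1S6 and 0.13 to 0.43 in PTPRS.

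The shifts were also compared within each replicate set, since the sets differ. In the first set 12 of the 145 exons had a mean shift under -0.1 and 9 over 0.1, and in the second 13 and 13. Over all 2695 tested events these counts were 224 and 68, and 243 and 88. The size exceeded 0.1 in both sets for 9 lower and 6 higher short exons, beside 108 and 35 of all 2695 events. Opposite directions over 0.1 were seen in 0 short exons, but also in only 4 of the 2695, so this 0 is not particular to short exons. MAX and PTPRA, 2 exons of 27 nt chosen after their values were seen, show the spread between sets: MAX, the partner of MYC, shifted by -0.0733 and -0.213 and PTPRA, a receptor phosphatase, by 0.0233 and 0.243 in the first and second set.

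**Figure D5:**
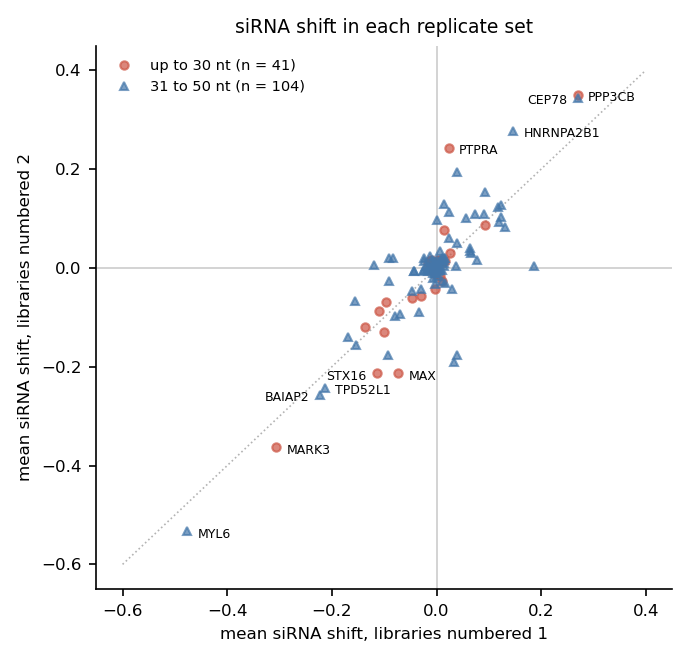
Each point is 1 of the 145 tested short exons, with the siRNA shift averaged over the 3 lines in libraries numbered 1 on the horizontal axis and in libraries numbered 2 on the vertical axis; the dotted line marks equal shifts. MYL6, MARK3 (27 nt), PPP3CB and CEP78 lie far from 0 in both sets.

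MARK2, a paralog of MARK3, also holds a 27 nt and a 45 nt cassette exon, and its values were picked out after they were seen. The 27 nt exon is listed with 2 pairs of neighbours and had as few as 3 and 6 isoform-specific reads. In the first listing it was lower in 6 of 6 pairs, with means of 0.268 with control and 0.158 with TIP60 siRNA, and in the second lower in 4, with 0.38 and 0.267. The 45 nt exon was tested in both of its listings, with means of 0.92 and 0.895 in one and 0.762 and 0.683 in the other, and did not pass. In the latter listing the second pair of wild-type cells shifted by -0.53, and the remaining pairs by -0.03 to 0.07. For MARK3 itself, a further listing of the 45 nt exon with another upstream exon had 0 isoform-specific reads in a library and was not tested; its means were 0.47 and 0.26, lower in 6 of 6 pairs.

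Exons on both sides of the length limit were set side by side. The 17 tested exons of 49 and 50 nt had averaged shifts from -0.155 to 0.125 with a median of 0.00333, and the 22 tested exons of 51 and 52 nt, which are outside the rule, from -0.345 to 0.0883 with a median of -0.0025.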

How the data were processed

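The authors deposited, for each library, a table of cassette exon events with the MISO inclusion level as a fraction from 0 to 1, its interval and, per the file headers, the read counts that fit the form with the exon, the form without it, both or neither. STAR and hg38 are named in the submitters' processing notes. Versions and MISO settings were not given in the sources used here. Values are rounded to 2 decimals, so shifts below 0.01 cannot be resolved. Introns and lengths were taken from the event coordinates, and genes, exon classes and spliced sequences from GENCODE 29 (GRCh38).

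Events with 10 or more isoform-specific reads in all 12 libraries were fitted in R 4.3.3 with limma 3.58.1 (1 factor of 6 groups, robust). The variance trend was on the mean over libraries of the log2 of isoform-specific reads plus 0.5. Benjamini-Hochberg adjustment was over 2695 events in each comparison, with a threshold of 0.05. Tables were made with Python 3.11.15, pandas 2.3.3 and scipy 1.17.1. Intervals of shifts are 95% limma intervals, and those of shares cover counting error only. In simulated data with these 2695 events, averaged shifts of 0.3 were called in 99% of cases and of 0.1 in 30%, and within empty-vector cells in 65% and 2%. The simulated shifts were placed only in events with levels near the middle of the scale. The simulated noise was independent between libraries, with no difference between the replicate sets. These rates thus do not carry over to exons with levels near 0 or 1, or to the spread between the real sets.

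Replicate numbers pair libraries: over 15 pairs of groups, the differences between replicate 1 and replicate 2 correlated across tested events with r of 0.706 to 0.779, and across the tested short exons with r of 0.354 to 0.707. The fit with this block is therefore given beside each result that it changes.

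Alternatives were 20 reads or no minimum, the log2 odds (levels bounded at 0.01 and 0.99), the ratio of reads, a quasi-binomial fit of the reads, primary chromosomes only, only the libraries of a comparison, a gap of 0.05 or 0.2 for separated libraries, and leaving out each library. Single exons are named when they passed in any of the 10 comparisons, had the largest shifts among exons of the same sign in 6 of 6 pairs, had the 3 smallest p-values in a comparison between lines, belonged to the microexon or NuA4/TIP60 lists, or were 12 nt or shorter. The exons and lists were chosen with earlier results of these data known. Splice-site and intron sequences were not used here, and 1 exon with opposite signs in 2 lines is not reported here.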

Additional observations from a re-analysis of the deposited data

Results flagged for a closer look

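Among the tested short exons reported here, some had both pairs of same-numbered libraries moving one way in one line and both moving the other way in another line. Some of these moves were only 0.01, the last digit of the deposited values. The share of all tested events with such a pattern is not given. The limma test of the difference between the lines' siRNA shifts gave an adjusted p of 1 for each of these exons, and the smallest unadjusted p was 0.0634, for SRSF7. For wild-type minus empty vector the differences were -0.07 for PFKFB3 (23 nt), 0.09 for TMBIM4 (46 nt), 0.04 for ENSA (48 nt), 0.025 for TNK2 (45 nt), -0.085 for FLNA (24 nt) and -0.04 for an event without a gene name (45 nt, on an alternate contig). For the dead enzyme minus empty vector they were 0.03 for ENSA and -0.02 for another such event of 45 nt. For the dead enzyme minus the wild-type enzyme they were -0.095 for TMBIM4, -0.09 for SRSF7 (36 nt), -0.05 for DCTN1 (15 nt), -0.055 for TNK2, -0.065 for TRIM35 (23 nt), 0.075 for SPTAN1 (15 nt) and -0.075 for ALG13 (38 nt). These exons were singled out by their values.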

How the results depend on the processing

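Shares of all tested events called are not given here for the alternative settings, apart from limma's replicate block. Their counts below can thus not be set against the whole table. The averaged siRNA comparison called 8 short exons and 6 to 12 under every setting with all libraries but one: the quasi-binomial fit with the replicate block called 29. Leaving out 1 library gave 3 to 6. In empty-vector cells the count of 1 became 2 with the replicate block, 0 with no read minimum, on log2 odds or with only the line's own libraries, 9 in the quasi-binomial fit with the block, and 0 to 2 without 1 library. In wild-type cells the count of 0 became 3 in the quasi-binomial fit with the block and 0 to 1 without 1 library. In cells with the dead enzyme the count of 1 became 4 with the replicate block, 2 with at least 20 reads, 0 on log2 odds, 2 in the quasi-binomial fit, 9 in that fit with the block, 0 with only the line's own libraries, and 0 to 3 without 1 library. Counts for the 3 differences between lines and the 3 construct comparisons were 0 in every setting run. Exons separated by the set gap, summed over the 3 lines, numbered 18 lower and 8 higher at 0.1, 32 and 22 at 0.05, and 8 and 3 at 0.2. No direction of a called exon reversed in these settings, and the replicate block changed no call beyond those given above. Depth limits what can be seen: 245 of the 390 short exons had under 10 isoform-specific reads in some library and could not be tested.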
